A study of Mus musculus with 18 samples.

Results

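The genes described here are 10 members of lipid signalling families, taken by symbol from the 62197 genes of a table of normalized counts, of which 25177 carry a symbol and 17875 were tested. They comprise the sphingosine 1-phosphate (S1P) receptors *S1pr1*, *S1pr2* and *S1pr4* with the kinase *Sphk1*, the lysophosphatidic acid (LPA) receptors *Lpar1*, *Lpar5* and *Lpar6* with the secreted enzyme *Enpp2*, the oxysterol receptor *Gpr183*, and *Ptafr*, the receptor for platelet-activating factor (PAF). Each symbol was found once, and all 10 genes passed the filter on low values, 10 normalized counts reached by 3 or more of the libraries.

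The libraries are bulk RNA-seq of mouse DCs grown from bone marrow for 10 days with GM-CSF, in 6 conditions of 3 libraries each, 18 in all. cPLA_2_ WT and cPLA_2_ KO cells were left nonconfined, were confined or were given lipopolysaccharide (LPS). For nonconfined cells the sample records give 10 days of culture and no later time. Confined cells were held under a ceiling 3 µm high, with 4 h after confinement given by the sample records. By the methods of the study they were lysed as soon as the ceiling was taken off. LPS-treated cells were given 100 ng ml-1 LPS for 30 minutes by the sample labels (the methods of the study give a slightly shorter time). They were then washed and collected the next day. The comparisons ask how the RNA of DCs responds to a change of cell shape, whether that response differs without cytosolic phospholipase A_2_ (cPLA_2_), and how it stands beside the response to a microbial product. Confined and LPS-treated cells may thus differ from nonconfined cells in time after the end of culture as well as in treatment. They also differ from each other in time, 4 h against the next day. Wherever confined cells are set against LPS-treated cells, treatment and time cannot be told apart. Recovered reads per library ran from 33027230 to 61300021, with a median of 40950398.

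The knockout is conditional. A floxed allele of *Pla2g4a*, which encodes cPLA_2_, was combined with *Itgax-cre*, a Cre that is active in cells expressing CD11c, and controls were littermates or mice of matched age, of either sex. The study describes its RNA-seq samples as biological replicates, without saying whether those of a condition came from separate mice, and p-values measure the spread between these samples. Over all pairs of libraries, the chi-square of the read counts per degree of freedom was 4.41 or more, where counting error alone gives about 1, and no library was taken for a copy of another.

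The targeted gene was examined first. *Pla2g4a* was at 697, 686 and 770 normalized counts in nonconfined cPLA_2_ WT libraries and at 548, 542 and 533 in nonconfined cPLA_2_ KO libraries. It was at 1369, 1430 and 1321 in confined cPLA_2_ WT libraries and at 923, 871 and 920 in confined cPLA_2_ KO libraries. In both treatments all cPLA_2_ KO libraries lay below all cPLA_2_ WT libraries (by log2 fold change −0.41, adjusted p = 0.00019 in limma for nonconfined cells, and −0.60, adjusted p = 3.81e-08 for confined cells), with most of the transcript still counted. In the LPS libraries the order was the opposite, with 1005, 969 and 967 in those labelled cPLA_2_ WT and 1065, 1032 and 1028 in those labelled cPLA_2_ KO.

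A Y-linked gene, the RNA helicase *Ddx3y*, gave a further check of the labels. It was at 949, 981 and 874 normalized counts in nonconfined cPLA_2_ KO libraries and at 1036, 920 and 948 in confined cPLA_2_ KO libraries, but at no more than 3.05 in each of the 6 nonconfined and confined cPLA_2_ WT libraries. Genotype and sex of the donor therefore cannot be told apart in these 4 conditions. The libraries labelled LPS cPLA_2_ WT held 1271, 0 and 662, and those labelled LPS cPLA_2_ KO held 2.12, 1476 and 783. In their read counts the library labelled LPS cPLA_2_ KO replicate 1 was closer to that labelled LPS cPLA_2_ WT replicate 2 (chi-square per degree of freedom 6.08) than to either of the other libraries labelled LPS cPLA_2_ KO (17.6 and 45.9). The LPS libraries of replicate 3 were also close across labels (7.37), where pairs with the same LPS label started at 12.0. LPS cPLA_2_ KO replicate 2 stood at 16.1 from LPS cPLA_2_ WT replicate 1, not below that. Because the LPS libraries go against their genotype labels, the 6 were pooled and set against the 6 nonconfined libraries, and the labels are named as labels only. Standard errors and p-values with LPS treat the 6 as independent. Whether libraries of the 2 labels came from the same cells was not tested, and if so these values overstate the precision.

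As background, LPA, S1P, oxysterols and PAF are small lipids that act through G protein-coupled receptors. S1P is made inside cells by sphingosine kinases, LPA outside cells by autotaxin (*Enpp2*), and the ligand of *Gpr183* from cholesterol by successive hydroxylations, the first by *Ch25h*. cPLA_2_ releases arachidonic acid and lysophospholipids from membranes, and the lysophospholipids include the precursor of PAF. S1P and oxysterol gradients are known for guiding lymphocytes and DCs within and between lymphoid tissues.

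Confinement of cPLA_2_ WT cells raised 6 of the 10 genes (*Lpar1*, *Sphk1*, *Ptafr*, *S1pr1*, *Enpp2* and *Gpr183*) and lowered *Lpar5* and *S1pr4*, where 28.2% of the 17875 genes tested were called higher and 28.4% lower at an adjusted p under 0.05. The median log2 fold change of the 10 was 0.80, against −0.01 over all genes tested. Confinement of cPLA_2_ KO cells raised 6 (*S1pr1*, *Ptafr*, *Sphk1*, *Lpar1*, *Lpar6* and *S1pr2*) and lowered *Lpar5*, *S1pr4* and *Gpr183*, beside 22.8% of genes higher and 23.4% lower, with a median of 0.58 against 0.01. The test of the difference between these responses, the interaction, was passed by 9 of the 10 genes. For 4 of them (*Lpar5*, *S1pr4*, *Lpar6* and *S1pr2*) the change in cPLA_2_ KO cells lay above that in cPLA_2_ WT cells, with 10.2% of all genes called in that direction, and for 5 (*Lpar1*, *Sphk1*, *Enpp2*, *Gpr183* and *Ptafr*) it lay below, with 15.6% of all genes.

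Between confined cells of the 2 genotypes the same division was seen, with 4 genes higher and 5 lower in cPLA_2_ KO cells, beside 18.8% and 20.6% of all genes. *S1pr1* was the gene not called. In nonconfined cells *Sphk1* was higher in cPLA_2_ KO cells and no gene of the 10 was called lower, beside 4.78% of all genes higher and 4.11% lower. LPS raised *Lpar1*, *Gpr183*, *Sphk1*, *Ptafr* and *Enpp2* and lowered *Lpar5*, *Lpar6*, *S1pr4*, *S1pr2* and *S1pr1*, beside 37.2% of all genes higher and 34.3% lower. Confined cPLA_2_ WT cells held 5 of the genes (*Lpar6*, *S1pr1*, *Lpar5*, *S1pr2* and *Sphk1*) above the LPS libraries and *Gpr183* below them, beside 24.5% and 29.8% of all genes. Between the libraries labelled LPS cPLA_2_ KO and LPS cPLA_2_ WT limma called 0 of the 10 genes higher and 0 lower, and 0% of all genes in either direction. At an unadjusted p under 0.05 that comparison held 890 of 17875 genes, *Lpar5* and *Enpp2* among them, and edgeR and DESeq2 likewise called 0 genes. With these labels in doubt, such counts are no result about genotype.

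**Figure D1:**
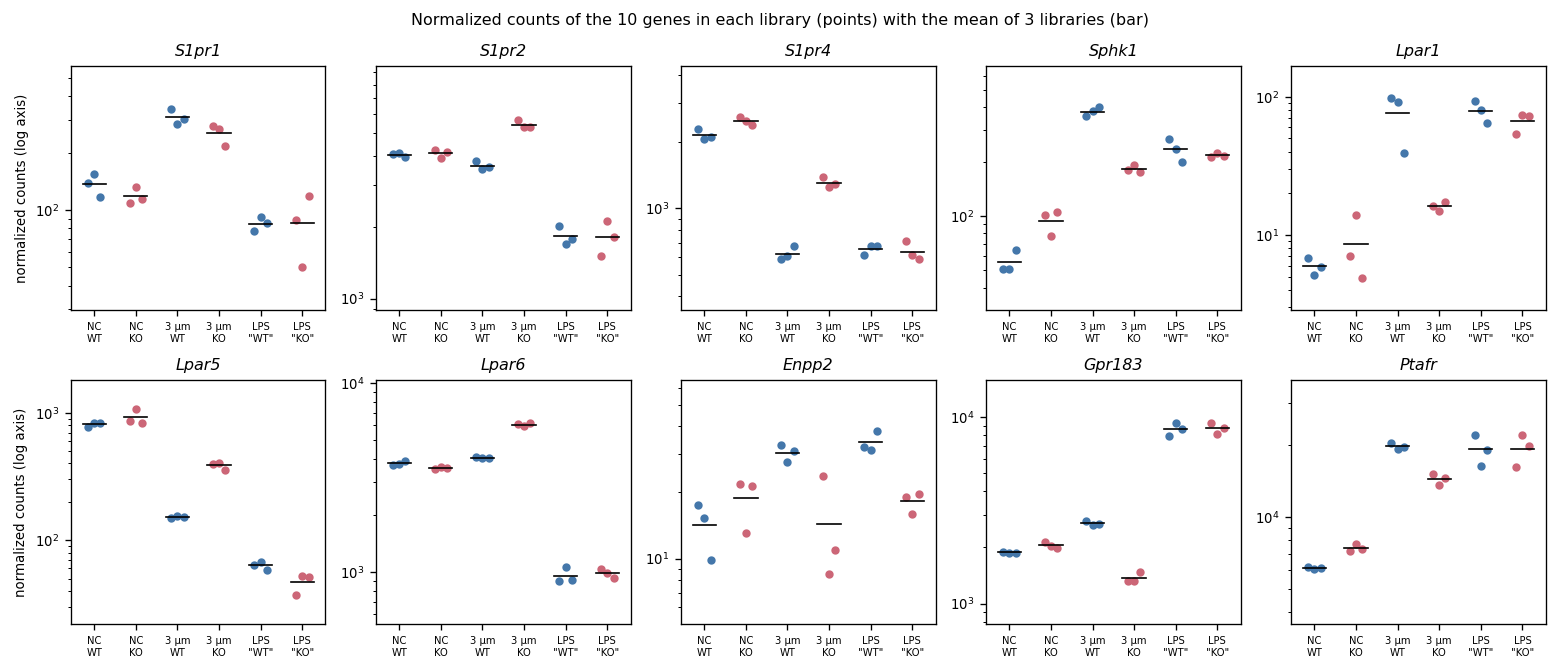
Normalized counts, on a log axis that differs between panels, of the 10 genes in each of 18 libraries, with 3 points and a bar at their mean for each condition. NC stands for nonconfined, 3 µm for confined, blue for cPLA_2_ WT and red for cPLA_2_ KO, and the genotype labels of the LPS libraries, in quotation marks, go against a Y-linked gene.

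The S1P receptors moved apart from each other. *S1pr1*, a receptor that drives migration towards S1P, was at 139, 155 and 118 normalized counts in nonconfined cPLA_2_ WT libraries and at 340, 285 and 302 in confined ones. In cPLA_2_ KO cells it was at 110, 132 and 115 when nonconfined and at 277, 267 and 218 when confined. All 6 confined libraries thus lay above all 6 nonconfined libraries. The log2 fold change with confinement was 1.17 (standard error 0.21, adjusted p = 7.1e-05) in cPLA_2_ WT cells and 1.09 (0.21, adjusted p = 0.000252) in cPLA_2_ KO cells. The difference between these changes was −0.08 with a 95% confidence interval from −0.71 to 0.54 (adjusted p = 0.88), and its sign turned (0.10) when libraries were scaled to the same total.

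LPS went the other way for *S1pr1*. The 6 LPS libraries ran from 50.3 to 118 with a median of 87.5, and the 6 nonconfined libraries from 110 to 155 with a median of 125, with some overlap. The log2 fold change was −0.61 (standard error 0.15, adjusted p = 0.00105). Confined cPLA_2_ WT cells lay 1.88 above the LPS libraries on the log2 scale (standard error 0.18, adjusted p = 1.85e-08). From high to low the means ran from confined cPLA_2_ WT (309 ± 28.4, SD, n = 3) and confined cPLA_2_ KO (254 ± 31.7) to nonconfined cPLA_2_ WT (137 ± 18.7), nonconfined cPLA_2_ KO (119 ± 11.8) and the LPS libraries labelled cPLA_2_ KO (86.0 ± 34.2) and cPLA_2_ WT (85.0 ± 7.04). From nonconfined cPLA_2_ WT downwards each condition overlapped with its neighbour.

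*S1pr2*, a receptor known for restraining migration towards S1P, did not follow *S1pr1*. Its libraries held 4064, 4121 and 3943 normalized counts in nonconfined cPLA_2_ WT cells and 3796, 3526 and 3593 in confined cPLA_2_ WT cells. In cPLA_2_ KO cells they held 4230, 3936 and 4150 and, after confinement, 5643, 5283 and 5300. Only the confined cPLA_2_ KO libraries stood above all others. The change with confinement was −0.15 on the log2 scale in cPLA_2_ WT cells, which did not pass the test (adjusted p = 0.128), and 0.40 in cPLA_2_ KO cells (adjusted p = 0.000509), with an interaction of 0.55 (standard error 0.12, adjusted p = 0.00127). The cPLA_2_ WT change passed when libraries were scaled to the same total (−0.38, adjusted p = 0.000191) and when the compared conditions were fitted alone (adjusted p = 0.00357). LPS lowered *S1pr2* to between 1518 and 2129 (log2 fold change −1.17, standard error 0.06, adjusted p = 9.07e-14), below all nonconfined and confined libraries. Nonconfined cPLA_2_ KO and cPLA_2_ WT libraries overlapped, and so did the LPS libraries of either label.

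*S1pr4*, an S1P receptor of hematopoietic cells, fell in each setting. Nonconfined cPLA_2_ WT libraries held 2283, 2070 and 2098 normalized counts and confined cPLA_2_ WT libraries 589, 611 and 675. Nonconfined cPLA_2_ KO libraries held 2601, 2477 and 2374 and confined cPLA_2_ KO libraries 1382, 1248 and 1289, so that confined cPLA_2_ KO libraries lay between the nonconfined and the confined cPLA_2_ WT libraries without overlap. Confinement changed the gene by −1.78 (standard error 0.07, adjusted p = 1.31e-14) in cPLA_2_ WT cells and by −0.93 (adjusted p = 1.77e-09) in cPLA_2_ KO cells, an interaction of 0.85 (standard error 0.11, adjusted p = 2e-06). The LPS libraries ran from 589 to 712 with a median of 647, across the range of the confined cPLA_2_ WT libraries, and their difference from these did not pass the test (confined cPLA_2_ WT less LPS −0.05, 95% confidence interval −0.19 to 0.09, adjusted p = 0.541). With libraries scaled to the same total that difference was 0.24 (adjusted p = 0.00481). In nonconfined cells the excess of 0.21 in cPLA_2_ KO cells missed the threshold (adjusted p = 0.0924) and passed it in DESeq2 (adjusted p = 0.0351) and with the compared conditions alone (adjusted p = 0.0238).

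Neutrophil markers fell with *S1pr4* in confined cPLA_2_ WT cells, fell in part in confined cPLA_2_ KO cells and went both ways with LPS. Of 7 such genes tested, 7 fell with confinement in cPLA_2_ WT cells, 3 fell and 0 rose in cPLA_2_ KO cells, and 7 were higher in confined cPLA_2_ KO than in confined cPLA_2_ WT cells. Of all genes tested, 28.4% and 23.4% fell in the 2 confinement comparisons, and 18.8% were higher in confined cPLA_2_ KO cells. With LPS 37.2% of all genes rose and 34.3% fell. Their summed level was 238264, 243271 and 241602 normalized counts in nonconfined cPLA_2_ WT libraries and 153794, 146621 and 144322 in confined cPLA_2_ WT libraries. It was 368282, 331137 and 356314 in nonconfined cPLA_2_ KO libraries and 332222, 345202 and 329166 in confined cPLA_2_ KO libraries. *S100a9* was the most abundant of them and none was at 0. With LPS, which lowered *S1pr4*, 4 of the 7 rose and 3 fell, and the sums lay between 276267 and 311530. T and NK cell markers fell in 3 of 3 with confinement in either genotype and with LPS, and eosinophil markers in 3 of 4 with confinement in either genotype and in 4 of 4 with LPS. The LPS counts are against nonconfined cells of both genotypes pooled. By label, the LPS eosinophil sums averaged 31484 (cPLA_2_ WT) and 31505 (cPLA_2_ KO), with single libraries from 23085 to 39730. These means lay above that of nonconfined cPLA_2_ WT libraries (27963) and below that of nonconfined cPLA_2_ KO libraries (65342). Fewer cells of a type and less RNA per cell cannot be told apart in bulk libraries, and the part of these markers in the results was not tested.

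The kinase *Sphk1*, which phosphorylates sphingosine to S1P, rose in all 3 responses. It was at 51.1, 51.2 and 64.9 normalized counts in nonconfined cPLA_2_ WT libraries and at 357, 382 and 400 in confined ones, a mean 6.81 times higher. In cPLA_2_ KO cells it started higher, at 101, 77.3 and 105, and reached 179, 191 and 175. No libraries of these 4 conditions overlapped, and *Sphk1* was the gene of the 10 called between nonconfined genotypes (log2 fold change 0.75, standard error 0.14, adjusted p = 0.00226). The change with confinement was 2.75 (standard error 0.14, adjusted p = 4.62e-13) in cPLA_2_ WT cells and 0.95 (0.14, adjusted p = 1.26e-05) in cPLA_2_ KO cells, with an interaction of −1.81 (0.20, adjusted p = 4.46e-07). The LPS libraries ran from 199 to 268 with a median of 220, above all nonconfined libraries and below all confined cPLA_2_ WT libraries (by log2 fold change 1.63 against nonconfined cells, adjusted p = 3.08e-12). From high to low the conditions were confined cPLA_2_ WT, LPS labelled cPLA_2_ WT, LPS labelled cPLA_2_ KO, confined cPLA_2_ KO, nonconfined cPLA_2_ KO and nonconfined cPLA_2_ WT, and among neighbours the libraries of the LPS labels overlapped.

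Of 14 further genes of S1P metabolism and signalling that were tested, 8 rose and 4 fell with confinement in cPLA_2_ WT cells (28.2% and 28.4% of all genes tested), 5 rose and 2 fell in cPLA_2_ KO cells (22.8% and 23.4%), and 8 rose and 4 fell with LPS (37.2% and 34.3%). *Abcc1*, a transporter that can export S1P, rose in both genotypes, from 2436 ± 60.4 (SD, n = 3) to 9275 ± 270 in cPLA_2_ WT cells and from 2371 ± 243 to 8823 ± 242 in cPLA_2_ KO cells (interaction −0.03, adjusted p = 0.902). The receptor *S1pr3* rose with confinement, by 1.82 (log2) in cPLA_2_ WT cells and by 0.78 in cPLA_2_ KO cells (interaction −1.04, adjusted p = 0.000571) and by 2.20 with LPS. The phosphatase *Sgpp1*, which removes the phosphate of S1P, changed by −1.53 with confinement in cPLA_2_ WT cells (adjusted p = 2.75e-15), by −1.12 in cPLA_2_ KO cells and by −2.02 with LPS. The ceramidase gene *Asah2* was lower in nonconfined cPLA_2_ KO cells (−0.58, adjusted p = 0.036). The ceramide synthase *Cers6* was lower in confined cPLA_2_ WT cells than in the LPS libraries (−1.56, adjusted p = 2.44e-13).

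Among the LPA receptors *Lpar1* was nearly absent in nonconfined cells. It was at 6.86, 5.12 and 5.90 normalized counts in cPLA_2_ WT libraries, which rest on 9, 6 and 6 reads, and at 7.05, 14.0 and 4.85 in cPLA_2_ KO libraries. Confined cPLA_2_ WT libraries held 98.6, 91.8 and 39.1, with replicate 3 well below the others, and confined cPLA_2_ KO libraries 16.2, 14.9 and 17.3. The log2 fold change, on the scale of normalized count + 1, was 3.38 (standard error 0.37, adjusted p = 7.86e-08) in cPLA_2_ WT cells and 0.94 (0.37, adjusted p = 0.0409) in cPLA_2_ KO cells. The interaction was −2.43 (0.52, adjusted p = 0.00122). The call in cPLA_2_ KO cells was lost in edgeR (adjusted p = 0.0897), DESeq2 (0.0872), with a pseudocount of 5 (0.0676), without a filter (0.0883), with the compared conditions alone (0.130) and when nonconfined cPLA_2_ KO replicate 1 (0.103) or 3 (0.198) or confined cPLA_2_ KO replicate 1 (0.0767), 2 (0.0625) or 3 (0.0961) was left out. The LPS libraries, between 54.1 and 93.7, stood above all nonconfined libraries (by log2 fold change 3.22, standard error 0.26, adjusted p = 2.89e-10) and overlapped with the confined cPLA_2_ WT libraries.

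*Lpar5*, a receptor of the other structural class of LPA receptors, changed in the opposite direction. Its libraries held 768, 837 and 831 normalized counts in nonconfined cPLA_2_ WT cells and 149, 154 and 152 in confined cPLA_2_ WT cells, a mean 5.36 times lower. Nonconfined cPLA_2_ KO libraries held 867, 1066 and 830 and confined cPLA_2_ KO libraries 397, 405 and 355. The confined cPLA_2_ KO libraries lay apart from both nonconfined and confined cPLA_2_ WT libraries. The log2 fold changes were −2.41 (standard error 0.13, adjusted p = 8.56e-13) and −1.25 (0.13, adjusted p = 8.26e-08), with an interaction of 1.17 (0.18, adjusted p = 4.46e-05). With LPS the gene stood lower than in any other condition, between 37.1 and 67.7 with a median of 55.7 (log2 fold change −3.96 against nonconfined cells, standard error 0.09, adjusted p = 8.72e-20). The LPS libraries labelled cPLA_2_ KO, at 37.1, 52.6 and 51.8, lay below those labelled cPLA_2_ WT, at 63.8, 67.7 and 58.8, and this difference did not pass the adjustment (−0.43, adjusted p = 0.779).

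*Lpar6*, of the same class as *Lpar5*, passed the test for a change with confinement in cPLA_2_ KO cells only. Nonconfined cPLA_2_ WT libraries held 3716, 3739 and 3871 normalized counts and confined cPLA_2_ WT libraries 4081, 4004 and 4045. Nonconfined cPLA_2_ KO libraries held 3520, 3592 and 3546 and confined cPLA_2_ KO libraries 6093, 5920 and 6136, the highest of all conditions. The change in cPLA_2_ WT cells was 0.10 (adjusted p = 0.141), passed the test with the compared conditions alone (adjusted p = 0.030) and turned to −0.13 with libraries scaled to the same total. The change in cPLA_2_ KO cells was 0.77 (standard error 0.06, adjusted p = 3.52e-10), and the interaction was 0.67 (0.08, adjusted p = 1.05e-06). The LPS libraries ran from 902 to 1065 with a median of 966, below all others (log2 fold change −1.91, standard error 0.04, adjusted p = 1.26e-20). Going from confined cPLA_2_ KO down through confined cPLA_2_ WT, nonconfined cPLA_2_ WT and nonconfined cPLA_2_ KO to the LPS libraries no neighbours overlapped, apart from the LPS labels with each other.

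*Enpp2*, which encodes the LPA-producing enzyme autotaxin, was close to the limit of what these libraries count. It was at 17.5, 15.3 and 9.83 normalized counts in nonconfined cPLA_2_ WT libraries and at 32.9, 27.4 and 30.8 in confined ones, from 34, 32 and 26 reads. Nonconfined cPLA_2_ KO libraries held 21.9, 13.0 and 21.4 and confined cPLA_2_ KO libraries 23.7, 8.53 and 10.9, with overlap. The change in cPLA_2_ WT cells was 1.07 (standard error 0.36, adjusted p = 0.0157) and that in cPLA_2_ KO cells −0.45 (0.36, adjusted p = 0.33), with an interaction of −1.53 (0.51, adjusted p = 0.0327). The cPLA_2_ WT call was lost without nonconfined cPLA_2_ WT replicate 3 (0.85, adjusted p = 0.0815). The interaction was lost without a filter (adjusted p = 0.0847), with the compared conditions alone (0.0543), and without any one of 7 of the 12 libraries (adjusted p from 0.0567 to 0.0887).

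The difference of *Enpp2* between confined genotypes (−1.15, adjusted p = 0.0156) was lost without confined cPLA_2_ KO replicate 2 (adjusted p = 0.0857) or 3 (0.0587). The LPS libraries labelled cPLA_2_ WT held 32.3, 31.1 and 38.2 and those labelled cPLA_2_ KO 19.1, 16.0 and 19.7. Pooled, they gave 0.61 above nonconfined cells (adjusted p = 0.0394). That call was lost without a filter (adjusted p = 0.0928), with TMM scaling (0.0554), in edgeR (0.0743) and DESeq2 (0.0625), with the same total per library (0.632), against nonconfined cPLA_2_ KO cells alone (0.246) and without any one of 7 of the 12 libraries (adjusted p from 0.0504 to 0.105).

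Of 7 further genes of LPA metabolism and signalling tested, 2 rose and 2 fell with confinement in cPLA_2_ WT cells, 1 rose and 3 fell in cPLA_2_ KO cells, and 4 rose and 2 fell with LPS, beside the shares of all genes called in these directions (28.2% and 28.4%, 22.8% and 23.4%, 37.2% and 34.3%). *Plpp3*, a phosphatase that degrades LPA outside cells, went from 17.7 ± 4.55 (SD, n = 3) to 215 ± 15.3 normalized counts in cPLA_2_ WT cells and from 13.4 ± 4.08 to 130 ± 11.6 in cPLA_2_ KO cells, and the 6 LPS libraries averaged 558 ± 82.8. Its log2 fold changes were 3.56 (adjusted p = 3.7e-12) and 3.23 (adjusted p = 4.96e-11) with confinement and 5.12 with LPS (adjusted p = 4.02e-18). *Pla1a*, a phospholipase that yields lysophosphatidylserine, rose from 297 ± 23.4 to 1108 ± 79.0 in cPLA_2_ WT cells. In cPLA_2_ KO cells it was at 278 ± 17.3 and, confined, at 238 ± 26.3 (interaction −2.13, adjusted p = 2.44e-07), and with LPS it rose by 3.67 (adjusted p = 1.56e-17). *Plpp2*, a further phosphatase of this family, was 0.64 higher in confined cPLA_2_ WT cells than with LPS (adjusted p = 1.42e-05).

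*Gpr183*, a chemotactic receptor for oxysterols, was changed by confinement in opposite directions in the 2 genotypes, as *S1pr2* was under the alternatives in which its fall in cPLA_2_ WT cells passed the test. It was at 1897, 1879 and 1879 normalized counts in nonconfined cPLA_2_ WT libraries and at 2775, 2657 and 2683 in confined ones. In cPLA_2_ KO cells it was at 2146, 2032 and 1982 when nonconfined and at 1329, 1315 and 1469 when confined. The confined cPLA_2_ WT libraries lay above and the confined cPLA_2_ KO libraries below all nonconfined libraries. The log2 fold changes were 0.52 (standard error 0.06, adjusted p = 1.89e-07) and −0.58 (0.06, adjusted p = 7.28e-08), and the interaction was −1.10 (0.09, adjusted p = 1.24e-09). With LPS the gene reached between 7950 and 9346 with a median of 8709 (log2 fold change 2.14, standard error 0.04, adjusted p = 5.85e-21), above every confined library. The order from high to low was LPS, confined cPLA_2_ WT, nonconfined cPLA_2_ KO, nonconfined cPLA_2_ WT and confined cPLA_2_ KO, and only the LPS labels overlapped.

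The enzyme that starts the synthesis of its ligand, *Ch25h*, rose in both genotypes, by more in cPLA_2_ WT cells. Nonconfined cPLA_2_ WT libraries held 472, 445 and 381 normalized counts and confined cPLA_2_ WT libraries 1543, 1447 and 1414. Nonconfined cPLA_2_ KO libraries held 530, 512 and 505 and confined cPLA_2_ KO libraries 757, 746 and 696. All confined libraries thus lay above all nonconfined ones, and the confined cPLA_2_ KO libraries at 0.499 times the mean of the confined cPLA_2_ WT libraries. The log2 fold changes were 1.76 (standard error 0.10, adjusted p = 1.04e-12) and 0.51 (0.10, adjusted p = 0.000178), with an interaction of −1.26 (0.14, adjusted p = 2.65e-07). LPS raised *Ch25h* to between 3770 and 5149 (log2 fold change 3.24, standard error 0.07, adjusted p = 1.47e-20), 1.60 on the log2 scale beyond confined cPLA_2_ WT cells (confined cPLA_2_ WT less LPS −1.60, adjusted p = 6.56e-13).

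Other enzymes that act on oxysterols gave mixed results. *Cyp7b1*, which completes the ligand, was not tested, since its highest library held 1.93 normalized counts, from 2 reads. *Hsd3b7*, which inactivates the ligand, changed by −0.12 with confinement in cPLA_2_ WT cells (adjusted p = 0.264) and by 0.33 in cPLA_2_ KO cells (adjusted p = 0.0038), with an interaction of 0.45 (adjusted p = 0.00961), and by −0.22 with LPS (adjusted p = 0.00348). *Cyp27a1*, another sterol hydroxylase, changed by −2.55 (adjusted p = 4.44e-10) with confinement in cPLA_2_ WT cells, from a mean of 394 to 97.9 normalized counts in cPLA_2_ KO cells (adjusted p = 4.29e-08), and by −3.38 with LPS (adjusted p = 3.02e-15). *Sult2b1*, a sterol sulfotransferase named after its values were seen, rose from 5.21 ± 2.81 (SD, n = 3) to 112 ± 16.1 normalized counts with confinement in cPLA_2_ WT cells (adjusted p = 2.21e-07) and from 4.96 ± 2.94 to 64.9 ± 9.50 in cPLA_2_ KO cells (adjusted p = 4.57e-06). Over the 5 oxysterol genes tested, 2 rose and 1 fell in confined cPLA_2_ WT cells, 3 rose and 1 fell in confined cPLA_2_ KO cells, and 1 rose and 3 fell with LPS, where 28.2% and 28.4%, 22.8% and 23.4%, and 37.2% and 34.3% of all genes tested did.

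*Ptafr*, the PAF receptor, rose in every response. It was at 6218, 6052 and 6111 normalized counts in nonconfined cPLA_2_ WT libraries and at 20402, 19350 and 19742 in confined ones. In cPLA_2_ KO cells it was at 7229, 7701 and 7384 when nonconfined and at 15184, 13666 and 14576 when confined. No libraries of these 4 conditions overlapped, and the confined genotypes stood closer together than for *Sphk1*. The log2 fold changes were 1.69 (standard error 0.09, adjusted p = 6.3e-13) and 0.96 (0.09, adjusted p = 1.56e-08), with an interaction of −0.73 (0.13, adjusted p = 0.000131). Between nonconfined genotypes the excess of 0.28 in cPLA_2_ KO cells missed the threshold (adjusted p = 0.0559). It passed in DESeq2 (adjusted p = 0.0207), with TMM scaling (0.0484), with a filter of 100 (0.0466) and with the compared conditions alone (0.000467).

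The LPS libraries of *Ptafr* reached the level of confined cPLA_2_ WT cells. Those labelled cPLA_2_ WT held 22143, 16476 and 19135 and those labelled cPLA_2_ KO 16237, 22107 and 19841, so that replicate 1 of one label stood beside replicate 2 of the other. The log2 fold change against nonconfined cells was 1.51 (standard error 0.06, adjusted p = 3.3e-15). The difference of confined cPLA_2_ WT cells from the LPS libraries was 0.05 with a 95% confidence interval from −0.11 to 0.21 (adjusted p = 0.627), and 0.34 (adjusted p = 0.000356) with libraries scaled to the same total.

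Of 8 further PAF genes tested, 4 rose and 4 fell with confinement in cPLA_2_ WT cells, 3 rose and 3 fell in cPLA_2_ KO cells, and 4 rose and 3 fell with LPS, where the shares of all genes were 28.2% and 28.4%, 22.8% and 23.4%, and 37.2% and 34.3%. *Lpcat2*, an enzyme that makes PAF, rose by 0.37 in cPLA_2_ WT cells (adjusted p = 3.15e-05), was at −0.07 in cPLA_2_ KO cells (adjusted p = 0.419; interaction −0.43, adjusted p = 0.000767) and rose by 0.79 with LPS (adjusted p = 5.92e-13). *Pla2g7*, the secreted enzyme that degrades PAF, rose by 1.10 (adjusted p = 1.03e-09) and 0.75 (adjusted p = 6.47e-07) with confinement and by 0.81 with LPS (adjusted p = 1.97e-10), and was higher in nonconfined cPLA_2_ KO cells (0.47, adjusted p = 0.00252). *Lpcat4*, a related acyltransferase, changed by −1.95 (adjusted p = 7.78e-16) and −1.52 (adjusted p = 1.9e-13) with confinement. *Pafah2*, an intracellular PAF hydrolase, had an interaction of 0.55 (adjusted p = 0.00074).

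Of 8 related receptors for lysolipids or protons that were tested, 6 were higher and 2 lower after confinement of cPLA_2_ WT cells (28.2% and 28.4% of all genes), 3 higher and 1 lower in cPLA_2_ KO cells (22.8% and 23.4%), and 4 higher and 1 lower with LPS (37.2% and 34.3%). The proton-sensing receptor *Gpr65* went from 1299 ± 64.0 (SD, n = 3) to 5141 ± 207 normalized counts in cPLA_2_ WT cells and stood at 1454 ± 108 and 1424 ± 72.5 in cPLA_2_ KO cells (interaction −2.01, adjusted p = 2.21e-08), with the LPS libraries at 1521 ± 309. It was 1.78 higher in confined cPLA_2_ WT cells than with LPS (adjusted p = 1.9e-11), as *Gpr35* was by 1.31 (adjusted p = 3.91e-08). *Gpr132* had an interaction of −1.27 (adjusted p = 1.89e-12). *Gpr34*, a receptor for lysophosphatidylserine, changed by −2.28 (adjusted p = 2.79e-11) in confined cPLA_2_ WT cells, by −1.59 (adjusted p = 2.14e-08) in confined cPLA_2_ KO cells (interaction 0.70, adjusted p = 0.0194) and by −2.51 with LPS (adjusted p = 4.05e-15). *P2ry10* (0.42, adjusted p = 3.74e-05) and *Gpr132* (0.19, adjusted p = 0.0149) were higher in nonconfined cPLA_2_ KO cells.

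**Figure D2:**
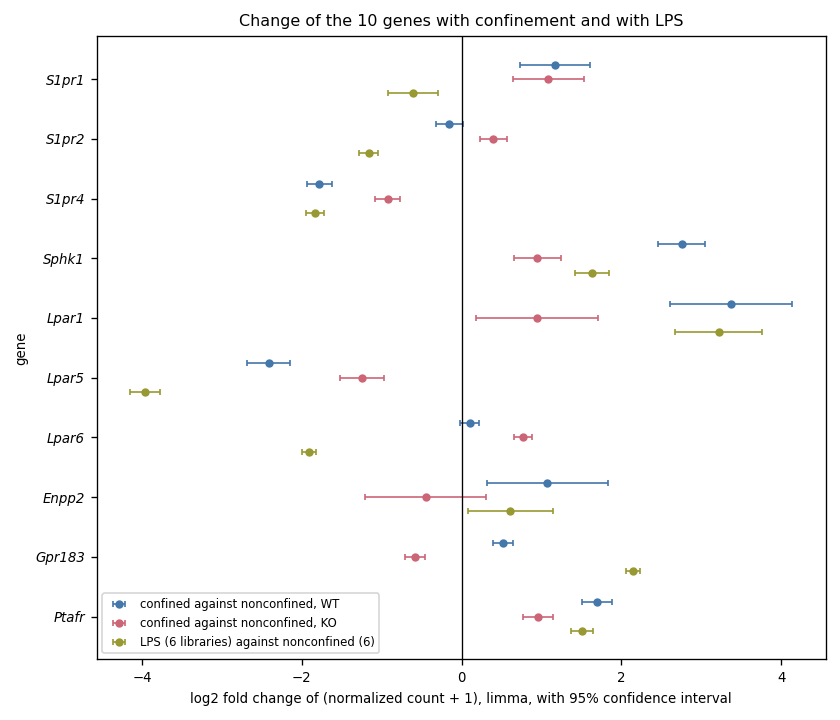
Log2 fold change of each of the 10 genes with confinement in cPLA_2_ WT (blue) and cPLA_2_ KO (red) cells and with LPS (olive), as points with 95% confidence intervals from limma, on a horizontal axis in log2 units of normalized count + 1. *S1pr1* lay above 0 with confinement (1.17 and 1.09) and below 0 with LPS (−0.61), and *Gpr183* lay on either side of 0 with confinement (0.52 and −0.58).

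Over all 46 further genes of these pathways, 42 were tested. In confined cPLA_2_ WT cells 22 rose and 13 fell (28.2% and 28.4% of all genes tested), with a median log2 fold change of 0.30 against −0.01 over all genes tested. In confined cPLA_2_ KO cells 15 rose and 10 fell (22.8% and 23.4%), with a median of 0.04 against 0.01. The interaction was called in 18 genes, 8 above and 10 below 0 (10.2% and 15.6%). Between genotypes 9 were higher and 13 lower in confined cPLA_2_ KO cells (18.8% and 20.6%), and 3 higher and 1 lower in nonconfined cPLA_2_ KO cells (4.78% and 4.11%). With LPS 21 rose and 13 fell (37.2% and 34.3%), with a median of 0.33 against 0.02, and 11 were higher and 20 lower in confined cPLA_2_ WT cells than in the LPS libraries (24.5% and 29.8%). With libraries scaled to the same total the last pair of counts became 20 higher and 10 lower (44.9% and 14.8% of all genes tested with this scaling), and that for LPS 15 and 20 (20.0% and 56.9%). The same scaling gave 14 higher and 11 lower between genotypes in confined cells (33.3% and 14.4%), and 9 above and 8 below 0 for the interaction (26.3% and 10.9%). It moved the median over all genes from −0.01 to 0.27, from 0.02 to −0.47, from 0.04 to 0.19 and from 0.05 to 0.24 in these 4 comparisons, so the counts of either direction hold for a given scaling only. For confinement in cPLA_2_ WT cells it gave 18 higher and 15 lower (19.8% and 41.1%), with a median over all genes of −0.23. Between the LPS labels limma called 0 of the 42.

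Levels can be set side by side per kilobase of exon sequence, taken from the GENCODE annotation, which is not the one used for counting. In nonconfined cPLA_2_ WT libraries *Ptafr* stood highest, at 1678 ± 23.0 normalized counts per kilobase (SD, n = 3). *S1pr4* was at 901 ± 48.5, *Lpar6* at 699 ± 15.4, *Gpr183* at 578 ± 3.16, *Lpar5* at 536 ± 25.3 and *S1pr2* at 398 ± 8.98. The GENCODE model of *S1pr2* (10170 exon bases) reaches beyond the counted positions on both sides. That of *Lpar5* (1515 exon bases) ends before them. The order of these genes therefore depends on the lengths used. *S1pr1* at 33.2 ± 4.52 and *Sphk1* at 10.0 ± 1.43 were far lower. *Enpp2* at 1.66 ± 0.464 and *Lpar1* at 0.742 ± 0.109 were the lowest.

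By the methods of the study, DCs were separated from the granulocytes and macrophages of these cultures by how firmly they adhere, and most cells recovered carry CD11c. The libraries held RNA of DC markers and of genes that mark other cell types. Of 9 DC markers tested, 0 rose and 8 fell with confinement in cPLA_2_ WT cells, 0 rose and 9 fell in cPLA_2_ KO cells, and 7 rose and 1 fell with LPS. For this and the following lists, the shares of all genes higher and lower were 28.2% and 28.4%, 22.8% and 23.4%, and 37.2% and 34.3%. Their summed level was 451217, 425144 and 430367 normalized counts in nonconfined cPLA_2_ WT libraries and 387611, 359360 and 371055 in confined ones, and 532578, 502899 and 522280 in nonconfined cPLA_2_ KO libraries and 360675, 346665 and 359501 in confined ones. *Cd74* was the most abundant and none was at 0. Falls with confinement in cPLA_2_ WT cells were also called in 4 of 6 macrophage markers, 6 of 6 mast cell and basophil markers, 3 of 4 eosinophil markers and 3 of 3 T and NK cell markers. In the remaining lists tested there were 1 rise and 1 fall among 2 megakaryocyte markers, 1 rise among 2 endothelial markers, 1 rise and 1 fall among 3 fibroblast markers and 1 fall among 3 B cell markers. Confinement of cPLA_2_ KO cells lowered 5 of 6 macrophage markers, 6 of 6 mast cell and basophil markers, 3 of 4 eosinophil markers and 3 of 3 T and NK cell markers. LPS raised 2 and lowered 4 of the macrophage markers, raised 1 and lowered 5 of the mast cell and basophil markers, and lowered 4 of 4 eosinophil and 3 of 3 T and NK cell markers. These calls are against nonconfined cells of both genotypes pooled. Mast cell and basophil sums averaged 8875 and 9112 in LPS libraries labelled cPLA_2_ WT and cPLA_2_ KO. They averaged 9107 in nonconfined cPLA_2_ WT and 13549 in nonconfined cPLA_2_ KO libraries. Eosinophil sums averaged 31484, 31505, 27963 and 65342 in the same order. The macrophage marker *Vsig4* was at 0 in all 18 libraries. The mast cell and basophil sums ran from 9046 to 9197 in nonconfined and from 3305 to 3475 in confined cPLA_2_ WT libraries, and the eosinophil sums from 27812 to 28181 and from 6883 to 7418.

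These markers also moved with genotype. Mast cell and basophil sums ran from 13295 to 13940 in nonconfined and from 5951 to 6162 in confined cPLA_2_ KO libraries, with *Cpa3* the most abundant gene. Eosinophil sums ran from 63232 to 67608 and from 15911 to 16836, with *Prg2* the most abundant, and none of either list was at 0. All these sums lay above those of the cPLA_2_ WT libraries of the same treatment. Both nonconfined and confined cPLA_2_ KO cells had 5 of 6 mast cell and basophil markers called higher and 0 lower, and 3 of 4 eosinophil markers were higher and 1 lower. Of the neutrophil markers 5 of 7 were higher in nonconfined and 7 of 7 in confined cPLA_2_ KO cells, with 0 lower in either. Of 6 macrophage markers 3 were higher and 0 lower in nonconfined cPLA_2_ KO cells, and 2 higher and 1 lower in confined ones. Of 9 dendritic cell markers 4 were higher and 1 lower in the former, and 0 higher and 2 lower in the latter. The shares of all genes higher and lower were 4.78% and 4.11% in nonconfined and 18.8% and 20.6% in confined cPLA_2_ KO cells. The interaction was called above 0 in 7 of 7 neutrophil markers and below 0 in 5 of 9 DC markers. Of 6 mast cell and basophil markers 3 were called above and 1 below 0, beside 10.2% and 15.6% of all genes. The part of these shifts in the changes of the lipid genes, with confinement, between genotypes, in the interaction or with LPS, was not tested.

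By Pearson's r of log2 values over the 18 libraries, which share the 6 conditions, genes among the most like each receptor or enzyme were the following, as a description among genes averaging 100 normalized counts or more. *S1pr1* was most like *Nt5e* (0.965), *Crtc3* (0.953) and *Sars* (0.944), and *S1pr4* most like *Vsir* (0.986), *Gapt* (0.986) and *Mospd3* (0.985). For *Lpar5* these were *Daglb* (0.994), *Grk6* (0.993) and *Gcnt1* (0.992), and for *Lpar6* *Klc4* (0.996), *Cd200r1* (0.995) and *Cd300lb* (0.995). *Gpr183* came closest to *Irf8* (0.996), *Samhd1* (0.995) and *Lgals9* (0.995), and *Ptafr* to *Ppfibp2* (0.996), *Hbp1* (0.991) and *Arf2* (0.990). Beside *Sphk1* stood *Gab1* (0.977) and *Mpc1* (0.975), and beside *Lpar1* *Pde4b* (0.978), *Mier1* (0.976) and *Rabgef1* (0.975). Those of *S1pr2* were *Kcnk13* (0.991), *Nceh1* (0.989) and an entry joining *Tnfsf12* and *Tnfsf13* (0.989). *Enpp2* had lower values, with *Borcs6* (0.809), *Otud1* (0.773) and *Arfgap1* (0.772).

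The genes lie apart in the genome, with positions given by the table on GRCm39. *S1pr1* is on chr3:115504082-115508704, *S1pr2* on chr9:20877248-20888089, *S1pr4* on chr10:81333579-81335971 and *Sphk1* on chr11:116421926-116427501. *Lpar1* is on chr4:58435252-58553525, *Lpar5* on chr6:125044882-125061007 and *Enpp2* on chr15:54698613-54783542. *Ptafr* is on chr4:132291378-132309992. *Lpar6*, on chr14:73475331-73480734, lies wholly within *Rb1* on the opposite strand and shares 408 exon bases with it in GENCODE. *Gpr183*, on chr14:122189743-122202607, lies within *Ubac2* on the opposite strand and shares 0 exon bases. Opposite-strand genes of GENCODE also share exon bases with *S1pr1* (50, *Gm9889*) and *Sphk1* (192, *Sphkos*). For *S1pr2* and *Enpp2* such sharing is found in longer GENCODE models only, beyond the positions given by the table. The libraries keep strand, but whether the counting used it is not stated in the sources used here, and without it reads of opposite strands cannot be told apart. The host *Rb1* was at 2093 ± 63.0 (SD, n = 3) in nonconfined and 2020 ± 20.4 in confined cPLA_2_ WT libraries, and at 2097 ± 220 and 2312 ± 58.2 in cPLA_2_ KO libraries. *Ubac2* was at 1043 ± 79.5 in nonconfined and 824 ± 13.6 in confined cPLA_2_ WT libraries, and at 968 ± 42.4 and 673 ± 12.6 in cPLA_2_ KO libraries, with all 3 confined libraries below the nonconfined ones in either genotype. *Gpr183* was also lower in confined cPLA_2_ KO libraries, but higher in confined cPLA_2_ WT libraries. In the LPS libraries labelled cPLA_2_ WT and cPLA_2_ KO *Ubac2* averaged 755 and 710, and *Gpr183* 8621 and 8762. The part of host reads in the *Gpr183* values was not tested.

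*S1pr2* and *Lpar6* shared a pattern across the conditions, highest in confined cPLA_2_ KO libraries and lowest with LPS, and the sequences upstream of their starts are therefore shown. RefSeq's promoter table (GRCm38.p6) held 8 of the 10 genes, without *S1pr1* and *Enpp2*. The 250 bases before each start were searched on both strands for the AP-1 site TGANTCA, the CRE TGACGTCA, the GAS TTCNNNGAA, the ISRE core GAAANNGAA and the NF-kB site. Of 32851 promoters in the table, 6.75% held the AP-1 site, 1.55% the CRE, 7.02% the GAS, 7.13% the ISRE core and 3.9% the NF-kB site. The *S1pr2* window lies on the minus strand of chr9:20888090-20888339 and the *Lpar6* window on the plus strand of chr14:73475081-73475330, both matched to GRCm39, and capitals mark the CRE, which begins 181 bases before the *S1pr2* start. In the *Lpar6* window none of the 5 motifs was found.
*S1pr2*: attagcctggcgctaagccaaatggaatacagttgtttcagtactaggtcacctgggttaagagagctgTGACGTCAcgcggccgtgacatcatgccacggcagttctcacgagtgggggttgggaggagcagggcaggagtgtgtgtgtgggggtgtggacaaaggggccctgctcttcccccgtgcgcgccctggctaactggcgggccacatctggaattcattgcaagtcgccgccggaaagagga
*Lpar6*: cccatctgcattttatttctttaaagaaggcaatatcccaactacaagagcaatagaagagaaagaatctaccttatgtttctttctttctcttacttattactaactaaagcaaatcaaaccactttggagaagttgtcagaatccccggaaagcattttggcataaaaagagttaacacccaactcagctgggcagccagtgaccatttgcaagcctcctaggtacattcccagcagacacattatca

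Among the other promoters of the table, *Ch25h* held the CRE at 61 bases before its start. Of 5 listed starts of *Sphk1*, 2 had the GAS and the AP-1 site in windows that overlap. In the nearer window these lay at 41 and 50 bases before the start. Another 2 starts, whose windows also overlap, had the ISRE core. It is the same stretch in both, at 237 and 244 bases before the start. The windows of *Lpar1*, *Lpar5*, *S1pr4*, *Gpr183* and *Ptafr* held none of the 5 motifs. These matches describe letters in a window and no site in use.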

How the data were processed

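The signal values are normalized counts as deposited by the authors, who aligned reads to GRCm39 with STAR 2.7.5a, counted them per gene of the Mouse FAST DB annotation with featureCounts 1.5.0 and divided them by DESeq2 size factors. Reads recovered from them were whole in 100% of values (tolerance 0.01 reads). Values were fitted as log2(normalized count + 1) over the 6 conditions with limma 3.58.1 (limma-trend, R 4.3.3), for genes reaching 10 normalized counts in 3 libraries or more, with Benjamini-Hochberg adjustment over 17875 genes. An interaction is the change with confinement in cPLA_2_ KO cells less that in cPLA_2_ WT cells. edgeR 4.0.16 and DESeq2 1.42.0 were run on recovered reads. The members and lists were chosen with earlier results of these data known. Beyond the members, the genes named are the 3 largest rises and falls called in each comparison among pathway genes averaging 100 normalized counts or more, and *Ch25h*, *Cyp7b1*, *Hsd3b7*, *Lpcat2* and *Pla2g7*, some with values of further comparisons; *Sult2b1* was added after its values were seen. The pooled LPS libraries were also set against nonconfined cPLA_2_ WT or cPLA_2_ KO cells alone, 2 alternatives chosen after seeing the data.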

Additional observations from a re-analysis of the deposited data

Results flagged for a closer look

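The change with confinement differed between cPLA_2_ KO and cPLA_2_ WT cells, by the limma interaction at an adjusted p under 0.05, in 9 of the 10 genes, beside 10.2% of all genes tested above 0 and 15.6% below. On the log2 scale the change in cPLA_2_ KO cells lay above that in cPLA_2_ WT cells by 1.17 for *Lpar5*, 0.85 for *S1pr4*, 0.67 for *Lpar6* and 0.55 for *S1pr2*. The difference was −2.43 for *Lpar1*, −1.81 for *Sphk1*, −1.53 for *Enpp2*, −1.10 for *Gpr183* and −0.73 for *Ptafr*. The *Enpp2* call was lost without a filter (adjusted p = 0.0847), with the compared conditions alone (0.0543) and without any one of 7 of the 12 libraries (0.0567 to 0.0887). Cell type markers also moved in the interaction, with 7 of 7 neutrophil markers above 0 and 5 of 9 DC markers below. Their part in these differences was not tested.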

How the results depend on the processing

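Of 1553 values under the alternatives, 1453 kept their direction and their side of the threshold. With direction kept, 55 no longer passed and 10 newly passed. A further 35 changed sign and are counted apart, whatever their side of the threshold. Of these, *S1pr4* in confined cPLA_2_ WT cells against LPS newly passed with the same total per library (0.24, limma adjusted p = 0.00481). Among the 52 differences called, of 80 fitted, 1 changed sign and no longer passed: *Enpp2* in the libraries labelled LPS cPLA_2_ KO against nonconfined cPLA_2_ KO cells (−0.00688, limma adjusted p = 0.989). A replicate block cannot change a fold change here, since each replicate number occurs once in every condition, so only the calls could move. Replicates of the same number were not alike across conditions (all 3 correlations above 0.1 in 0 of 15 pairs of conditions). With the block, 80 of 80 kept their call, and the genes called of the 10 numbered 8, 9, 9, 9, 1, 10, 0 and 6 for confinement in cPLA_2_ WT cells, confinement in cPLA_2_ KO cells, the interaction, genotype in confined cells, genotype in nonconfined cells, LPS, the LPS label and confined cPLA_2_ WT cells against LPS. These are the counts of the main fit, whose shares of all genes are given in the Results. Shares with the block are not given here. With a fold change above 1 on the log2 scale also required, 2 were called for confinement in cPLA_2_ KO cells, 5 for the interaction, 5 for genotype in confined cells and 0 for genotype in nonconfined cells, which follows from the added threshold; of all genes tested it left 12.0%, 7.67%, 10.1% and 1.15%. Genotype in nonconfined cells gave 2 with a filter of 100, 2 with TMM scaling, 3 in DESeq2 and 3 with the compared conditions alone, and the cause was not tested. The main fit gave 1, beside 4.78% of all genes higher and 4.11% lower. Shares of all genes under these alternatives are not given here, so their counts cannot be set against them.

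With the same total per library, sign changed for *Lpar6* with confinement in cPLA_2_ WT cells (−0.13), the *S1pr1* interaction (0.10), *S1pr2* between nonconfined genotypes (−0.0120), and *Lpar1* (0.26) and *S1pr4* (0.24) in confined cPLA_2_ WT cells against LPS. With that scaling the genes tested had a median of −0.23 for confinement in cPLA_2_ WT cells, 0.24 for the interaction, 0.19 for genotype in confined cells, −0.47 for LPS and 0.27 for confined cPLA_2_ WT cells against LPS, beside −0.01, 0.05, 0.04, 0.02 and −0.01 without it. In the last comparison sign also changed for *Lpar1* with TMM (0.0484), edgeR (0.16), DESeq2 (0.12) and the libraries labelled LPS cPLA_2_ KO (0.10), for *S1pr4* with TMM (0.0220) and edgeR (0.0184), and for *Enpp2* with the libraries labelled LPS cPLA_2_ WT (−0.15). *S1pr1* changed sign between LPS labels in edgeR (0.0137) and DESeq2 (0.0130). The cause was not tested.

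With 1 library left out at a time, the *S1pr1* interaction ran from −0.18 to 0.0227. Between nonconfined genotypes *Lpar1* ran from −0.0117 to 0.67 and *S1pr2* from −0.000221 to 0.0518. Between LPS labels the ranges were −0.33 to 0.27 for *S1pr1*, −0.14 to 0.11 for *S1pr2*, −0.13 to 0.00910 for *S1pr4*, −0.21 to 0.00505 for *Sphk1*, −0.0330 to 0.0798 for *Gpr183* and −0.0974 to 0.13 for *Ptafr*. In confined cPLA_2_ WT cells against LPS *Lpar1* ran from −0.26 to 0.40 and *Ptafr* from −0.0131 to 0.10. None of these differences was called with all libraries. Depth limits *Lpar1* in nonconfined cells, with 5 to 15 reads, and *Enpp2*, with 8 to 41 reads in any library.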
